A study of Homo sapiens with 18 samples.

Results

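The IFIT and IFITM genes are 2 families of interferon-stimulated genes. The 7 genes described here, IFIT1, IFIT2, IFIT3, IFIT5, IFITM1, IFITM2 and IFITM3, were chosen by name among the 35044 genes of the count table, and all 7 passed the filter on low counts that left 18335 genes to test. RNA-seq was run on the breast cancer cell line HCC1937, which carries mutated BRCA1, as HCC1937-EV with an empty vector and as HCC1937-OE-BRCA1 with overexpressed wild-type BRCA1. Each was sequenced untreated (0 h) and after 12 h and 24 h with the PARP inhibitor (PARPi) olaparib, in 3 libraries for each of 6 conditions and 18 in all. The labels list olaparib also for the 0 h libraries and a wild-type genotype for HCC1937-EV, whereas the study's text calls the 0 h libraries untreated and HCC1937-EV BRCA1-mutated. Whether either line is 1 clone is not given in the sources used here, and nothing says that the 3 libraries of a condition came from separate cultures, so p-values measure the spread between these libraries, which may be technical.

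Interferons bound to their receptors activate JAK kinases and, through them, transcription factors such as STAT2 and IRF9 that act on the interferon-stimulated response element (ISRE) in promoters. IRF3, activated by sensors of double-stranded RNA, can bind related elements and induce some of these genes without interferon. IFIT proteins are cytosolic and act on foreign RNA and its translation, whereas IFITM proteins sit in membranes and hinder the fusion of enveloped viruses with the cell.

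Total counts lay between 15081973 and 17571922 per library. BRCA1 was at 118 ± 7.70 CPM (counts scaled to library size, mean ± SD, n = 3) in untreated HCC1937-EV and at 138 ± 24.0 in untreated HCC1937-OE-BRCA1, a log2 difference of 0.24 ± 0.11 (SE) that did not pass the test (adjusted p = 0.0654), whereas at 24 h the difference was 0.77 and passed (adjusted p = 3.17e-06). The 24 h response of BRCA1 itself also differed between the labels, by 0.54 (adjusted p = 0.0230). The check of the targeted gene by its total mRNA thus did not separate the untreated libraries. Counts per gene do not tell introduced from endogenous BRCA1. At the protein level, the study reports truncated BRCA1 in HCC1937-EV and both truncated and wild-type BRCA1 in HCC1937-OE-BRCA1. The names of both lines are used below as labels of the libraries. The libraries labelled HCC1937-EV were also low in markers of basal breast epithelium. KRT5, KRT14, KRT17 and KRT6B summed to 3.34 CPM there and to 3480 CPM in untreated HCC1937-OE-BRCA1, and EPCAM was at 0.0206 against 310.1 CPM. Of the 4 basal markers, KRT6B was without a count in all 9 libraries labelled HCC1937-EV. The general epithelial markers EPCAM, CDH1, KRT8 and KRT18 summed to between 2421 and 3165 CPM in HCC1937-EV. In HCC1937-OE-BRCA1 they summed to between 3969 and 6511 CPM. KRT8 and KRT18 were present in both lines and made up nearly all of the sum in HCC1937-EV. CDH1, like EPCAM, was near 0 in untreated HCC1937-EV, at 0.659 CPM against 433 CPM in untreated HCC1937-OE-BRCA1. The fibroblast markers COL1A1, COL3A1 and DCN summed to between 89.3 and 143.5 CPM in HCC1937-EV. In HCC1937-OE-BRCA1 they summed to between 6.59 and 12.1 CPM, and most of either sum was COL1A1. COL3A1 went the other way, at 0.0620 CPM in untreated HCC1937-EV and 0.636 CPM in untreated HCC1937-OE-BRCA1. DCN was near 0 in both, at 0.0620 and 0.0411 CPM. Leukocyte markers summed to at most 2.28 CPM, with CD3E and MS4A1 at 0 throughout, and the endothelial pair PECAM1 and VWF to between 0.925 and 21.1 CPM. Their part in the differences between the lines was not tested. Log2 CPM of libraries correlated at 0.981 to 0.992 between replicates and at 0.728 to 0.753 between lines, so that a difference between the lines cannot be told apart from any other difference between these cells. The libraries were bulk RNA, in which fewer expressing cells and less RNA per cell cannot be told apart.

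By GENCODE release 29 on GRCh38, the IFIT genes lie together on chromosome 10, all on the plus strand: IFIT2 at 89283694 to 89309276, IFIT3 at 89327894 to 89340971, IFIT1 at 89392546 to 89406486 and IFIT5 at 89414586 to 89421001. The IFITM genes lie near the end of chromosome 11, IFITM2 at 307631 to 315272 and IFITM1 at 313506 to 315272 on the plus strand and IFITM3 at 319669 to 327537 on the minus strand. All 7 are protein-coding. The spans of IFITM1 and IFITM2 overlap in this annotation, and 351 bases, 32.5% of the exonic bases of IFITM1, are exonic in both. The IFITM genes are also near-identical in part. Of the 50-base stretches of IFITM1 transcripts, 29.4% occur in IFITM2 and 9.18% in IFITM3, and 12.9% of those of IFITM2 occur in IFITM3. No 50-base stretch was shared between members of the IFIT family. IFIT2 shares 356 exonic bases, 8.68% of its own, with AL353751.1 on the same strand. Levels of IFITM1, IFITM2, IFITM3 and, to this extent, IFIT2 are therefore uncertain, because reads that match more than 1 gene may have been dropped or assigned to the wrong one. The deposited identifiers carry later version numbers than this release, so the annotation used for counting may differ from it.

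The promoters are shown because the members share motifs there. RefSeq windows on GRCh38.p14, from 250 bases before to 50 after the transcription start, were found for 5 of the 7 members, with 2 windows for IFIT3, and none for IFIT2 and IFITM2. Both strands were searched for the ISRE core GAAANNGAAA and for the gamma-activated sequence (GAS) TTCNNNGAA. Each of the 6 windows held at least 2 ISRE cores. Of all 35116 windows of the same length, 3.57% held 1 or more and 0.259% held 2 or more. The 160 bases before each start are printed 5′ to 3′ in the direction of the gene, with ISRE cores in capitals.
IFIT1 (chr10:89392463-89392622, plus strand): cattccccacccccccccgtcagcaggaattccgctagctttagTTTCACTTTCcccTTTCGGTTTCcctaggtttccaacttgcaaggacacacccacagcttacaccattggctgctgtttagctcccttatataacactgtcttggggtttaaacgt
IFIT3, first start (chr10:89327837-89327996, plus strand): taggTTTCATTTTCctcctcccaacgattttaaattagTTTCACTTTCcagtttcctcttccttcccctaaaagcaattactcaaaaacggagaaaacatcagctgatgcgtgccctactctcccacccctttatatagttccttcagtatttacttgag
IFIT3, second start (chr10:89332369-89332528, plus strand): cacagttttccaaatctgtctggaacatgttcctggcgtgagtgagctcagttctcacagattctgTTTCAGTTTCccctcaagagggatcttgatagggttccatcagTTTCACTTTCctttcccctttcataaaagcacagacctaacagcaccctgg
IFIT5 (chr10:89414408-89414567, plus strand): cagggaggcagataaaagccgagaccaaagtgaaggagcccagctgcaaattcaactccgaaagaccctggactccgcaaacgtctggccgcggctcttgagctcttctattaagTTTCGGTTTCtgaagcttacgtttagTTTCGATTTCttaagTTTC
IFITM1 (chr11:313880-314039, plus strand): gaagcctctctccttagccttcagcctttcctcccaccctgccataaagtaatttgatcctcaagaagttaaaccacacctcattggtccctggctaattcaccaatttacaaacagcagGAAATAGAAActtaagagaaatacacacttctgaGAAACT
IFITM3 (chr11:320861-321020, minus strand): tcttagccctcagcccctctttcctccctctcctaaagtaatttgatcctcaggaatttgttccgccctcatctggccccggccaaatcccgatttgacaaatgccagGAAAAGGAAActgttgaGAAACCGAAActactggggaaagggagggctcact

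In the IFIT promoters every core lay on the opposite strand to the gene, and in the IFITM promoters on the gene's own strand. IFIT1 had its pair beginning 116 and 103 bases before the start, with only 3 bases between them. IFIT3 had cores at 156 and 122 bases before its first start and at 94 and 51 before its second. IFIT5 had the most matches, at 45, 19 and 4 bases before the start, of which the last runs past the start and is printed only in part. IFITM1 had cores at 40 and 6 bases before the start, the latter again printed in part, and IFITM3 at 52 and 35. IFITM1 alone of the 5 held a GAS match, 12 bases before the start and overlapping its ISRE core at 6, against 7.66% of all windows with a GAS. A match of these letters is a description of the sequence and does not show that a factor binds.

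**Figure D1:**
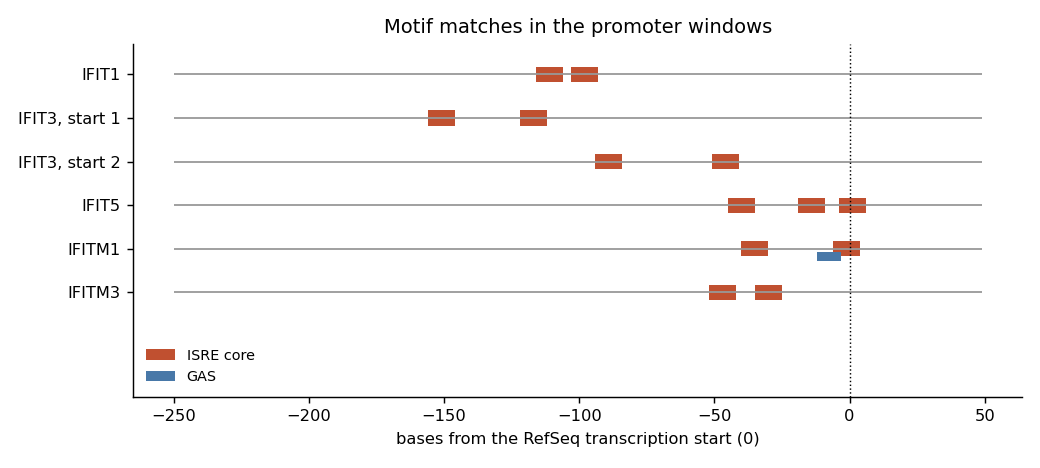
Positions of ISRE cores (red) and of the GAS match (blue) in the 6 RefSeq promoter windows of 5 members, in bases from the transcription start at 0. Every window holds 2 or 3 ISRE cores, those of IFIT5, IFITM1 and IFITM3 all within 52 bases of the start and those of IFIT1 beginning 103 or more bases before it.

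In untreated HCC1937-OE-BRCA1, IFITM3, which restricts viruses in endosomes, and IFITM1, which acts mainly at the cell surface, had the highest levels per length of the 7 genes. On the scale of CPM per exonic kilobase, IFITM3 stood at 166 ± 35.2 (SD, n = 3) and IFITM1 at 81.0 ± 14.9. IFIT3, the partner that stabilises IFIT1, stood at 24.9 ± 2.70, IFIT1, which binds RNA that lacks a mature cap, at 19.3 ± 3.81, IFIT2, a binder of AU-rich RNA, at 9.17 ± 1.15 and IFIT5, a binder of RNA with a 5′ phosphate, at 5.07 ± 1.21. IFITM2, a relative of IFITM3 in endosomes, was lowest at 0.711 ± 0.102. In untreated HCC1937-EV the order was different. IFITM3 again came first with 88.2 ± 2.63 CPM per kilobase, but IFITM2 came next with 29.4 ± 2.27 and then IFITM1 with 9.37 ± 1.07. The 4 IFIT genes lay below all IFITM genes there, between 0.581 ± 0.194 for IFIT5 and 1.80 ± 0.331 for IFIT3. After 24 h of PARPi in HCC1937-OE-BRCA1, IFITM3 reached 239 ± 12.8, IFITM1 180.1 ± 7.45, IFIT3 107 ± 2.78, IFIT1 65.7 ± 1.48 and IFIT2 50.6 ± 1.98 CPM per kilobase.

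**Figure D2:**
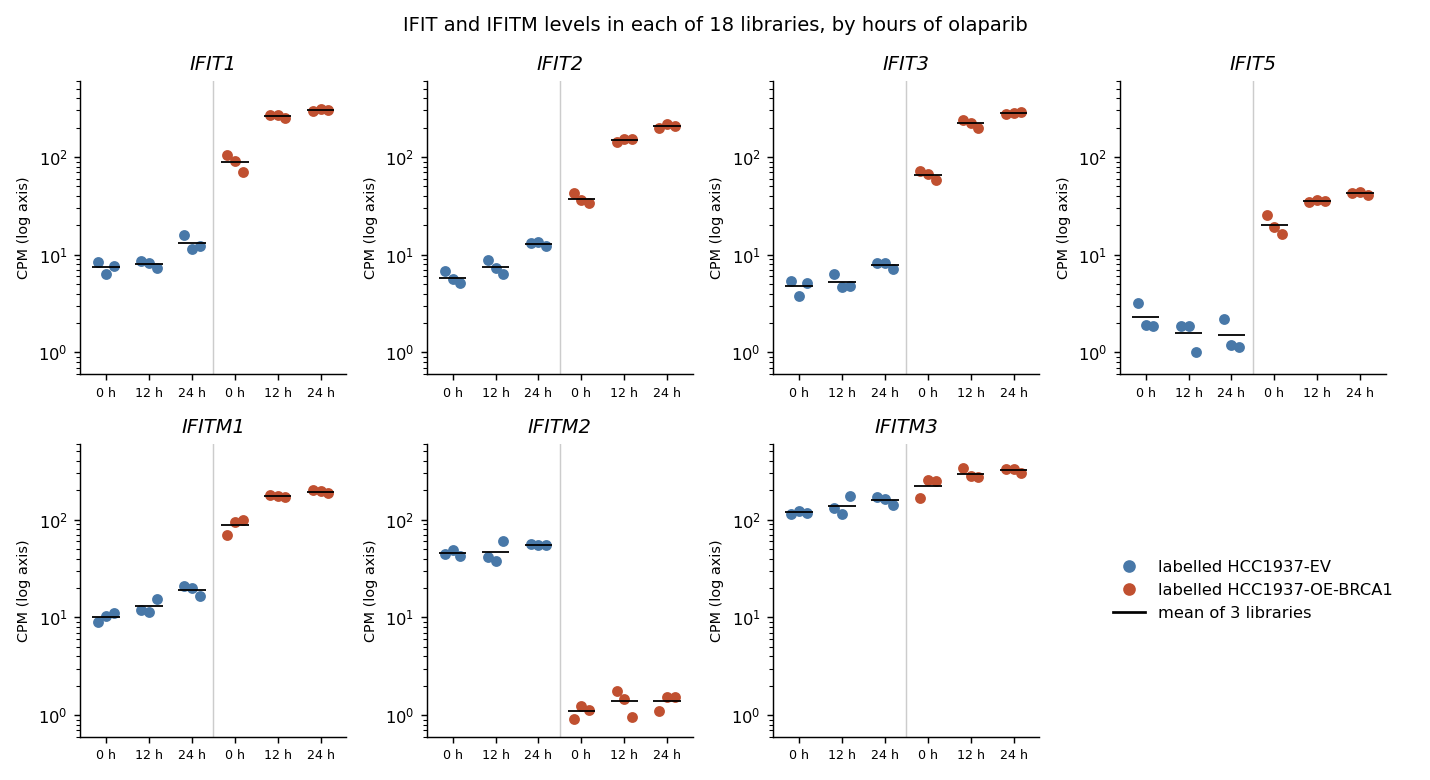
CPM of each member (log axis) in each of the 18 libraries by hours of olaparib, with points for libraries, black lines for the mean of 3, blue for HCC1937-EV and red for HCC1937-OE-BRCA1. The 4 IFIT genes and IFITM1 are higher in every HCC1937-OE-BRCA1 library than in any HCC1937-EV library, IFITM2 is lower in every one, and IFITM3 overlaps between the lines. The share of all genes with such a separation is not given here.

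The treatment comparisons asked how expression changed with PARPi in the libraries of each label, and whether the change differed between the labels. No untreated libraries were sequenced at 12 h or 24 h. A change with PARPi therefore cannot be told apart from a change with hours in culture. A response to PARPi here means the change over the 0 h libraries. In HCC1937-OE-BRCA1, all 4 IFIT genes and IFITM1 rose by 12 h, and IFITM3 passed the test at 24 h. IFIT2 rose most, to 5.52 times its untreated level at 24 h, and IFITM2 passed the test at neither time. Of all tested genes, 1.7% were called higher at 12 h and 4.71% at 24 h, against 5 and 6 of the 7 members. The 12 h and 24 h comparisons share the untreated libraries. Markers moved in the same libraries. At 24 h against untreated, 3 of 4 epithelial markers fell, KRT18 by 0.56, KRT8 by 0.50 and CDH1 by 0.35 on the log2 scale. KRT5 fell by 0.47, while the endothelial marker PECAM1 rose by 0.92. VWF, the other endothelial marker, was not called, at 0.559 CPM untreated and 0.471 CPM at 24 h. At 12 h, KRT6B rose by 1.04, and between 12 h and 24 h KRT6B, KRT17 and KRT5 fell, 3 of 4 basal markers, as did KRT8 and CDH1. Of all 18335 genes, 1515 were called in either direction at 24 h against untreated and 303 between 12 h and 24 h. Their part in the response was not tested.

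IFIT1 was at 105, 92.0 and 70.3 CPM in the untreated HCC1937-OE-BRCA1 libraries (replicates 1, 2 and 3, as throughout), at 272, 271 and 251 at 12 h and at 295, 308 and 305 at 24 h. The 3 conditions did not overlap. The log2 fold change over untreated was 1.57 ± 0.13 (SE) at 12 h (adjusted p = 1.58e-07), and by 24 h it was 1.76 ± 0.13 (adjusted p = 2.01e-08). IFIT2 was at 42.9, 36.1 and 33.8 CPM untreated, at 141, 153 and 154 at 12 h and at 200.1, 216 and 206 at 24 h. Every 24 h library again lay above every 12 h library. Its log2 fold change was 1.99 ± 0.11 at 12 h (adjusted p = 1.88e-09), and after 24 h it was 2.46 ± 0.12 (adjusted p = 3.79e-11).

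IFIT3 was at 72.1, 67.3 and 58.1 CPM untreated, at 237, 225 and 201 at 12 h and at 277, 281 and 291 at 24 h, without overlap. It rose by 1.75 ± 0.12 on the log2 scale at 12 h (adjusted p = 5.16e-09), and after 24 h the rise was 2.10 ± 0.12 (adjusted p = 5.30e-10). IFIT5 was the lowest of the IFIT genes, at 25.7, 19.0 and 16.3 CPM untreated, 34.5, 36.0 and 35.4 at 12 h and 43.1, 44.0 and 41.1 at 24 h. Its libraries also kept the order of the times, but the steps were smaller. The log2 fold change was 0.79 ± 0.19 at 12 h (adjusted p = 0.0219), and after 24 h it was 1.07 ± 0.19 (adjusted p = 0.000975). The 12 h call of IFIT5 was kept only without untreated replicate 1 (adjusted p = 0.00305) and was lost without any other of the 6 libraries (adjusted p of 0.0611 to 0.0956).

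IFITM1 was at 69.1, 94.2 and 99.2 CPM untreated, at 179.9, 174 and 169 at 12 h and at 202, 196 and 186 at 24 h. The treated libraries lay above all untreated ones, and the lowest 24 h library lay above the highest at 12 h. The log2 fold change was 0.996 ± 0.129 at 12 h (adjusted p = 6.03e-05), and after 24 h it was 1.15 ± 0.13 (adjusted p = 5.89e-06). IFITM3 was at 168, 253 and 248 CPM untreated, at 337, 281 and 271 at 12 h and at 333, 331 and 302 at 24 h. Untreated replicate 1 was low beside the other untreated libraries, and the 12 h and 24 h libraries overlapped. Its log2 fold change was 0.41 ± 0.15 at 12 h (adjusted p = 0.202), and after 24 h it was 0.53 ± 0.15 (adjusted p = 0.0296). The 24 h call of IFITM3 was kept without untreated replicate 2 or 3, but it was lost without untreated replicate 1 (0.36, adjusted p = 0.0675) and without any of the 24 h libraries (adjusted p of 0.0635 to 0.0921), and also when only the 2 compared conditions were fitted (0.51, adjusted p = 0.0672).

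IFITM2 had 15 to 28 counts per HCC1937-OE-BRCA1 library. It was at 0.924, 1.23 and 1.13 CPM untreated, at 1.76, 1.45 and 0.953 at 12 h and at 1.11, 1.54 and 1.53 at 24 h. The 3 conditions overlapped. The log2 fold change was 0.34 at both times, with a 95% interval from -0.25 to 0.94 at 24 h (adjusted p = 0.513), so that at this depth neither no change nor a near doubling could be separated from it.

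Between 12 h and 24 h in HCC1937-OE-BRCA1, IFIT2 alone of the members rose past the threshold, by 0.47 ± 0.11 on the log2 scale (adjusted p = 0.0282), against 0.791% of all genes called higher. This call was lost whichever of the 6 libraries was left out, with adjusted p of 0.0780 to 0.188. The other 6 members had log2 changes between 0.0014 for IFITM2 and 0.36 for IFIT3.

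In HCC1937-EV, none of the 7 members passed edgeR's test at 12 h, where 0.0273% of all genes were called higher. Without adjustment, IFIT2 and IFITM1 had p under 0.05 in edgeR's test, 2 of the 7 members, as did 2963 of all 18335 genes. DESeq2's Wald test also called 0 of the 7. At 24 h, IFIT1, IFIT2, IFIT3 and IFITM1 rose, 4 of 7 against 8.62% of all genes called higher. IFIT5 was the only member with a lower fitted level at both times.

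IFIT1 was at 8.39, 6.30 and 7.59 CPM in untreated HCC1937-EV, at 8.71, 8.25 and 7.26 at 12 h and at 16.0, 11.6 and 12.2 at 24 h. The 24 h libraries lay above all others, and the 0 h and 12 h libraries overlapped. The rise at 24 h was 0.84 ± 0.15 on the log2 scale (adjusted p = 0.00325). IFIT2 was at 6.77, 5.62 and 5.12 CPM untreated, at 8.84, 7.31 and 6.38 at 12 h and at 13.2, 13.6 and 12.3 at 24 h. It showed the same separation of 24 h from the rest. Its rise at 24 h was 1.16 ± 0.13 (adjusted p = 6.76e-05).

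IFIT3 was at 5.40, 3.77 and 5.12 CPM untreated, at 6.34, 4.63 and 4.82 at 12 h and at 8.15, 8.14 and 7.13 at 24 h, a rise of 0.71 ± 0.15 on the log2 scale at 24 h (adjusted p = 0.00666). IFITM1 was at 8.88, 10.3 and 11.2 CPM untreated, at 12.0, 11.4 and 15.6 at 12 h and at 21.0, 20.2 and 16.8 at 24 h, a rise of 0.93 ± 0.15 (adjusted p = 0.00119). In both genes the 24 h libraries lay above every earlier one. IFIT5 had 15 to 52 counts per library and was at 3.23, 1.92 and 1.85 CPM untreated, at 1.86, 1.88 and 1.02 at 12 h and at 2.18, 1.18 and 1.14 at 24 h. These conditions overlapped, and the log2 change at 24 h was -0.63 ± 0.29 (adjusted p = 0.146).

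IFITM2 was at 44.8, 49.1 and 42.1 CPM untreated, at 41.8, 37.6 and 60.0 at 12 h and at 56.2, 55.7 and 55.4 at 24 h. The wide 12 h libraries enclosed both other conditions, and the log2 change at 24 h was 0.30 (95% interval -0.011 to 0.61, adjusted p = 0.180). IFITM3 was at 116, 123 and 118 CPM untreated, at 132, 114 and 174 at 12 h and at 169.9, 163 and 141 at 24 h. The 24 h libraries lay above the untreated ones, with a log2 change of 0.41 ± 0.15 that did not pass the test (adjusted p = 0.0660). Between 12 h and 24 h, IFIT2 alone passed the test (0.79 ± 0.13, adjusted p = 0.00758), against 0.136% of all genes called higher. That call was lost without 12 h replicate 2 (adjusted p = 0.0627) or 24 h replicate 2 (adjusted p = 0.0623).

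**Figure D3:**
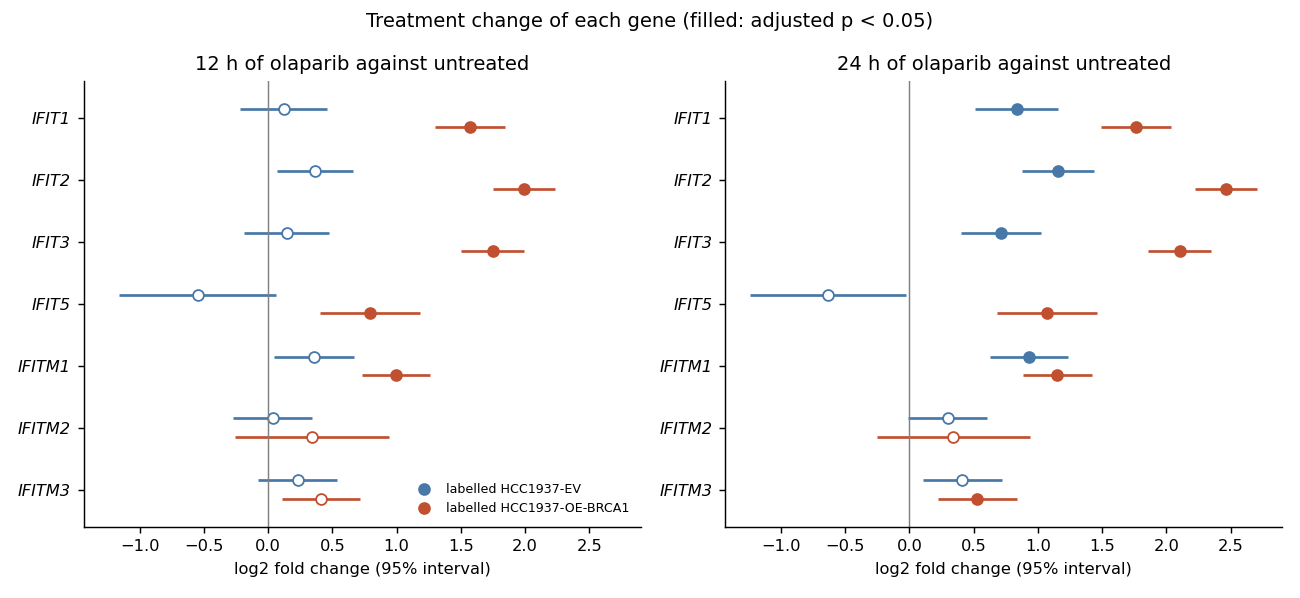
Log2 fold change over untreated (x axis) of each member after 12 h (left) and 24 h (right) of olaparib, with 95% intervals, blue for HCC1937-EV and red for HCC1937-OE-BRCA1, filled where the adjusted p is under 0.05. For IFIT1, IFIT2, IFIT3 and IFIT5 the intervals of the lines do not overlap at either time, and the values of IFIT5 lie on opposite sides of 0, with the HCC1937-EV interval crossing 0 at 12 h. Those of IFITM2 and IFITM3 overlap at both times and those of IFITM1 at 24 h only.

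The response to PARPi was larger in HCC1937-OE-BRCA1 than in HCC1937-EV for the IFIT genes, by the interaction term of the same model. At 12 h the difference of the log2 fold changes was 1.63 ± 0.18 (SE) for IFIT2 (adjusted p = 5.51e-05), 1.60 ± 0.20 for IFIT3 (adjusted p = 0.000152) and 1.45 ± 0.21 for IFIT1 (adjusted p = 0.00113). IFIT5 had 1.34 ± 0.35 and did not pass (adjusted p = 0.0890). Of all genes, 0.376% were called higher in this comparison. At 24 h all 4 IFIT genes passed, against 8.16% of all genes: IFIT5 with 1.70 ± 0.35 (adjusted p = 0.00299), IFIT3 with 1.39 ± 0.19 (adjusted p = 0.000150), IFIT2 with 1.31 ± 0.18 (adjusted p = 0.000136) and IFIT1 with 0.93 ± 0.20 (adjusted p = 0.00444). The difference of IFIT5 joined a rise in one line to a lower, uncalled level in the other.

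None of the 3 IFITM genes passed edgeR's test of this difference. At 12 h the values were 0.64 (95% interval 0.23 to 1.05) for IFITM1, 0.31 (-0.37 to 0.98) for IFITM2 and 0.18 (-0.25 to 0.61) for IFITM3. IFITM1 was the 1 gene of the 3 with an unadjusted p under 0.05 in edgeR's test, as were 2690 of all 18335 genes. At 24 h they were 0.22 (-0.18 to 0.63), 0.044 (-0.60 to 0.69) and 0.12 (-0.31 to 0.55). DESeq2's Wald test called 0 of the 3 at either time. These calls changed with a correction for GC content and length together. The correction took out each library's trend with these properties around the mean of its line. It would also take out a treatment response that follows them, and it leaves such trends between the lines in place. GC content was higher in the IFITM genes (55.0% to 59.8%) than in the IFIT genes (37.4% to 44.2%), and exonic length was shorter (1080 to 1543 against 2640 to 4613 bases), so the parts of the 2 properties cannot be told apart here. In the corrected fit, the 24 h differences were 0.65 for IFITM1 (adjusted p = 0.000454) and 0.75 for IFITM3 (adjusted p = 1.94e-05), and both passed, while the IFIT genes kept their calls with 0.66 for IFIT1, 1.06 for IFIT2, 1.31 for IFIT3 and 1.34 for IFIT5. At 12 h, IFITM1 (0.85), IFITM3 (0.47) and IFIT5 (1.396) also passed in that fit.

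GC content moved with the balance of the families inside every condition. The 4 IFIT genes summed to 246, 214 and 179 CPM in untreated HCC1937-OE-BRCA1, to 684, 685 and 641 at 12 h and to 815, 849 and 844 at 24 h. The 3 IFITM genes summed to 238, 348 and 349, to 519, 457 and 442 and to 536, 529 and 490 CPM in the same libraries. Untreated replicate 1 thus had the highest IFIT and the lowest IFITM sum of its condition. These sums are not per length, so their ratio is read across libraries and not between families.

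The log2 ratio of the IFIT to the IFITM sum was 0.044, -0.70 and -0.97 in untreated HCC1937-OE-BRCA1, 0.40, 0.58 and 0.54 at 12 h and 0.61, 0.68 and 0.79 at 24 h. All treated libraries lay above the untreated ones, and the mean was -0.54 ± 0.52 untreated (SD, n = 3), or -0.83 without replicate 1, and 0.69 ± 0.090 at 24 h. In HCC1937-EV the ratio was -2.83, -3.37 and -3.12 untreated, -2.85, -2.88 and -3.68 at 12 h and -2.64, -2.80 and -2.70 at 24 h. The 24 h libraries lay above all untreated ones there too, by a smaller distance, with means of -3.11 ± 0.27 and -2.71 ± 0.077. The difference of the families' mean log2 CPM, in which every gene counts equally, gave another picture there, with -3.04 ± 0.32 untreated and -3.06 ± 0.15 at 24 h and overlapping libraries. In HCC1937-OE-BRCA1 this measure was 0.73 ± 0.49 untreated and 1.91 ± 0.042 at 24 h, without overlap. Between the lines the ratio of the sums did not overlap at any time. The IFITM sum was made up differently in each line. IFITM2 made up 26.0% of it in untreated HCC1937-EV and 0.355% in untreated HCC1937-OE-BRCA1, and IFITM3 68.2% and 71.5%. In the ratio without IFIT5, IFITM2 and IFITM3, given below, the untreated libraries of the lines overlapped.

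The mean GC content of a library, weighted by counts, was 50.1%, 51.5% and 51.8% in untreated HCC1937-OE-BRCA1 and 49.4%, 49.98% and 51.1% in HCC1937-EV at 12 h, the widest spreads of the 6 conditions. In 6 of 6 conditions the order of the 3 libraries by this GC content was the reverse of their order by the log2 ratio. The part of GC content in the ratio was not tested. The same correction left the 24 h response of IFIT1, IFIT2 and IFIT3 in HCC1937-OE-BRCA1 at 1.65, 2.35 and 2.04, raised that of IFITM3 to 0.73 and brought that of IFITM3 in HCC1937-EV from 0.41 to -0.019.

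**Figure D4:**
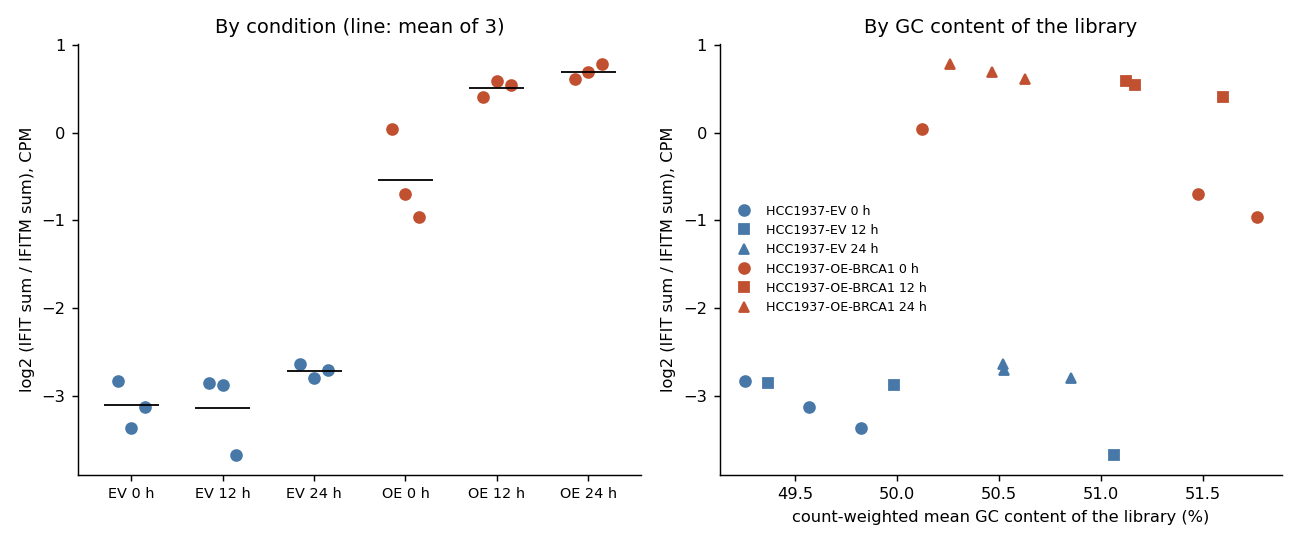
Log2 ratio of the summed CPM of the 4 IFIT genes to that of the 3 IFITM genes in each of the 18 libraries, by condition with the mean of 3 as a line (left) and by the count-weighted mean GC content of the library (right). Within each condition the library with more GC has the lower ratio, the lines stay apart throughout, and the treated HCC1937-OE-BRCA1 libraries (0.40 to 0.79) lie above the untreated ones.

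Between the lines, 6 members were higher in the libraries labelled HCC1937-OE-BRCA1 at every time and IFITM2 was lower. These calls stand against 39.4% of all genes called higher and 33.3% called lower in the untreated lines, 38.8% and 34.1% at 12 h and 39.9% and 34% at 24 h, so the sizes are given. The fits kept each of these 21 calls whichever library was left out. The basal epithelial markers, which differed between the same libraries, are given above, and their part was not tested.

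Untreated, IFIT3 was 13.8 times as high in HCC1937-OE-BRCA1 as in HCC1937-EV (95% interval 11.3 to 16.9), IFIT1 12.0 times (9.63 to 14.95), IFIT5 8.71 times (6.24 to 12.2), IFITM1 8.64 times (6.99 to 10.7), IFIT2 6.43 times (5.33 to 7.77) and IFITM3 1.88 times (1.51 to 2.32). The untreated lines did not overlap in any of these 6 genes, in a comparison where 39.4% of all genes were called higher. The share of all genes without such overlap is not given here. With treatment the distance of the IFIT genes grew. At 24 h it was 36.2 times for IFIT3, 28.3 for IFIT5, 22.8 for IFIT1 and 15.9 for IFIT2, and at 12 h it had been 41.9, 22.1, 32.7 and 19.9 times. IFITM1 was 13.4 times as high at 12 h and 10.1 times at 24 h, also above its untreated distance. IFITM3 was 2.12 times and 2.04 times as high. Among the means of the 6 conditions, each IFIT gene and IFITM1 had the order 24 h, 12 h and untreated within HCC1937-OE-BRCA1 with no overlap between neighbours. Of these genes, IFIT2 alone passed the test between 12 h and 24 h, where 0.791% of all genes were called higher. The share of all genes with this order and no overlap is not given here. In IFITM3 the neighbours overlapped at 4 of 5 steps, including untreated HCC1937-OE-BRCA1 (168 to 253 CPM) and HCC1937-EV at 24 h (141 to 169.9 CPM).

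IFITM2 was the exception. It had 602 to 952 counts in the HCC1937-EV libraries and 15 to 28 in those of HCC1937-OE-BRCA1, a log2 difference of -5.36 ± 0.21 untreated (adjusted p = 3.44e-15), -5.05 at 12 h and -5.32 at 24 h. In folds, it was 41.1 times lower untreated (95% interval 30.2 to 55.8). IFITM3, which shares sequence with it, was higher in the same libraries. The counts of IFITM2 amounted to 31.7% to 40.0% of those of IFITM3 in HCC1937-EV and to 0.332% to 0.548% in HCC1937-OE-BRCA1, which bounds the share of reads of IFITM3 that could have been counted for IFITM2 in those libraries. No other of the 15 tested genes within 200 kb of the IFITM genes was lowered to this extent. Of these 15, 3 were higher and 7 lower in untreated HCC1937-OE-BRCA1, against 39.4% and 33.3% of all genes. Their median was -0.40 and the lowest value was -1.92. PTDSS2, a phosphatidylserine synthase, had -1.34, PSMD13, a proteasome subunit, -0.55 and ANO9, a membrane protein of the anoctamin family, 5.95 in the other direction. The antisense gene ENSG00000251661, which overlaps IFITM3, was at 0.457 CPM in untreated HCC1937-OE-BRCA1 and 0.0412 CPM in HCC1937-EV, far below IFITM3.

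**Figure D5:**
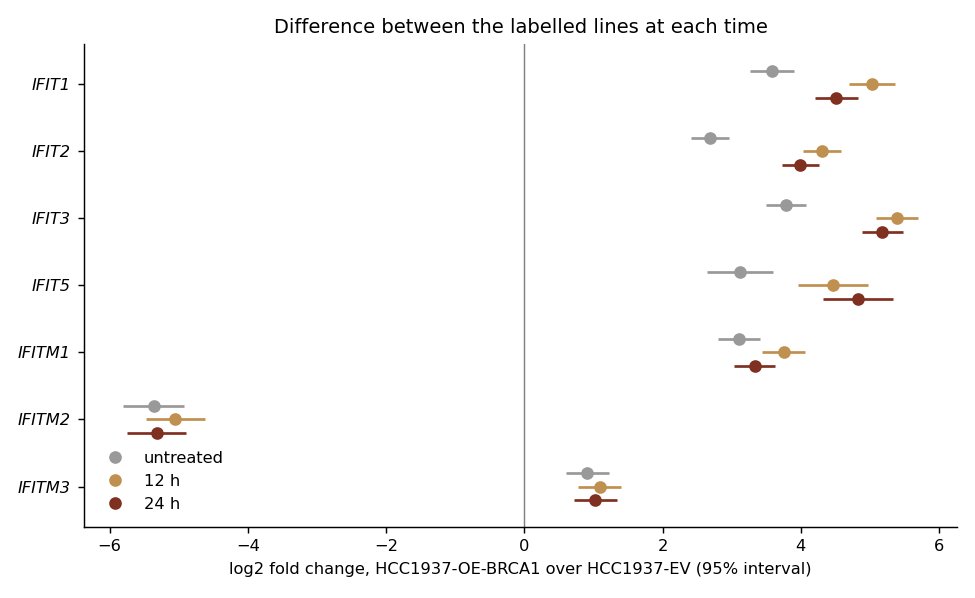
Log2 fold change of HCC1937-OE-BRCA1 over HCC1937-EV (x axis) for each member, untreated (grey), at 12 h (tan) and at 24 h (brown), with 95% intervals. IFITM2 lies near -5 at all times, IFITM3 near 1, and the IFIT genes move to higher values after treatment.

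Beside the IFIT genes on chromosome 10, 2 further genes within 200 kb were tested. LIPA, lysosomal acid lipase, is encoded on the opposite strand, and its span covers IFIT2, IFIT3 and IFIT1 and ends before IFIT5, with 65 exonic bases shared with IFIT2. LIPA rose in HCC1937-OE-BRCA1, by 0.41 on the log2 scale at 12 h (adjusted p = 0.0495) and by 0.55 at 24 h (adjusted p = 0.00326). Whether counting used strand is not given in the sources used here, and reads of overlapping genes could not be told apart without it. PANK1, a pantothenate kinase, had -0.17 and -0.058. Of the 15 neighbours of the IFITM genes, B4GALNT4 alone was called at 24 h in HCC1937-OE-BRCA1, and it was lower (-0.64, adjusted p = 0.0449). At 24 h in HCC1937-EV, 4 of the 15 rose, against 8.62% of all genes called higher. These were PGGHG by 0.60, B4GALNT4 by 0.71, PKP3 by 0.41 and SIGIRR by 0.78. The median of the 15 was 0.37, beside 0.30 for IFITM2 and 0.41 for IFITM3.

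The table holds 13 other genes or pseudogenes of the families. IFITM10, a distant member, had 27 to 67 counts in each HCC1937-OE-BRCA1 library and at most 1 in HCC1937-EV. IFIT1P1, a pseudogene, had 2 to 12 and at most 6. The other 11, IFIT1B and IFITM5 among them, were too low to test, with at most 45 counts over all 18 libraries.

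Other genes of the pathway were taken from lists by their known roles. All 7 cytosolic effectors, ISG15, MX1, OAS1, OAS2, OAS3, OASL and HERC5, rose in HCC1937-OE-BRCA1 at both times, where 1.7% and 4.71% of all genes were called higher. Their median change was 1.28 at 12 h and 1.29 at 24 h on the log2 scale, beside 0.0037 and 0.024 over all genes. HERC5, the ligase that attaches ISG15, rose by 1.37 at 12 h and 1.87 at 24 h, and MX1, a dynamin-like GTPase, by 1.01 and 0.76. In HCC1937-EV at 24 h, OASL (1.56) and ISG15 (0.86) rose, 2 of the 7, against 8.62% of all genes called higher. Of the 5 membrane-associated effectors, CH25H was too low to test and RSAD2 (viperin) was the 1 of 4 that rose in HCC1937-OE-BRCA1, by 2.23 at 12 h and 2.13 at 24 h. RSAD2 was without a count in HCC1937-EV. BST2, which tethers virus particles, had 0.085 and 0.015, LY6E 0.61 and 0.79 (adjusted p = 0.102 at 24 h), and IFI6 0.46 and 0.44. At 24 h in HCC1937-EV, IFI6 (1.99) and BST2 (0.52) rose, and the difference of the IFI6 response between the lines was -1.56 (adjusted p = 0.0105).

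Of the 16 signalling genes, 15 were tested, IRF7 being too low. In HCC1937-OE-BRCA1, 5 rose at 12 h and 7 at 24 h, where 1.7% and 4.71% of all genes were called higher, and the median log2 change at 24 h was 0.62. STAT2 rose by 1.33 and 1.28, and IRF1, an interferon-induced transcription factor, by 0.65 and 0.87. IFNL1, a type III interferon, was at 2.01 ± 0.397 CPM untreated, 12.8 ± 1.77 at 12 h and 14.7 ± 1.95 at 24 h, and IFNB1 reached 0.778 ± 0.284 CPM at 24 h. IFNB1, IFNL1, IFNL2 and IFNL3 were at 0 in all 9 HCC1937-EV libraries. IRF3 was higher in untreated HCC1937-OE-BRCA1 by 1.10 (adjusted p = 4.80e-06), where 39.4% of all genes were called higher. It was at 162 ± 40.3 CPM there and 75.8 ± 3.17 in untreated HCC1937-EV. At 24 h the lines lay closer, at 131 ± 4.92 and 107 ± 6.29 CPM. The change of IRF3 after PARPi in HCC1937-OE-BRCA1 was -0.079 at 12 h and -0.31 at 24 h (adjusted p = 0.929 and 0.261). In HCC1937-EV at 24 h, IRF3 (0.50) and TYK2 (0.43) rose, where 8.62% of all genes were called higher, and JAK1 fell by 0.34.

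Of the 7 sensor genes, RIGI, IFIH1 and DHX58, the RNA sensors of the RIG-I family, rose in HCC1937-OE-BRCA1 at 12 h by 1.38, 1.23 and 1.02, and at 24 h EIF2AK2 (0.57) and STING1 (0.70) rose as well. At 24 h in HCC1937-EV, DHX58 rose by 1.37 and EIF2AK2 fell by 0.53. In that comparison 8.62% of all genes were called higher, and 2520 of 18335 were called in either direction. MAVS, the adaptor of these sensors, had changes between -0.048 and -0.0021 over both times and lines. Of the 6 genes of the cap and of translation initiation, on which IFIT proteins act, CMTR1, the methyltransferase of the first transcribed nucleotide, rose at 12 h in HCC1937-OE-BRCA1 (0.50, adjusted p = 0.00833) and had 0.25 at 24 h, which did not pass. RNMT fell by 0.47 in HCC1937-EV at 24 h. The 7 genes of IFITM regulation had changes between -0.21 and 0.32 in HCC1937-OE-BRCA1, with adjusted p of 0.182 or more. In HCC1937-EV at 24 h, NEDD4, the ubiquitin ligase of IFITM proteins, fell by 0.77 (adjusted p = 0.00307) and SETD7, a methyltransferase of IFITM3, by 0.38 (adjusted p = 0.0331).

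The members' patterns were compared with those of 14846 genes by Pearson's r of log2 CPM, given as a description because the libraries share lines, depth and GC content. Over the 9 HCC1937-OE-BRCA1 libraries, the genes most like IFIT2 were LAMP3 (0.999), SH3KBP1 (0.998) and HERC5 (0.995). SH3KBP1 and LAMP3, with APOBEC3F, also came closest to IFIT3. Closest to IFIT1 were ENSG00000276980 (0.996), PARP9 (0.992) and HCAR2 (0.991), and to IFIT5 IFI16, a DNA sensor, TRIM38 and SP110, at 0.992 to 0.996. For IFITM1 they were APOL1 (0.991), UBA7, the activating enzyme of ISG15 (0.989), and OASL (0.984). For IFITM3 they were SHISA5 (0.985), ACOT1 (0.979) and LGALS3BP (0.974). IFITM2 had no gene above 0.922, the value of ZNF710-AS1, followed by TBX19 and NIT1, at its 15 to 28 counts per library. Among the members themselves in these 9 libraries, r was 0.960 to 0.995 within the IFIT family, 0.912 between IFITM1 and IFITM3, 0.831 to 0.945 between IFITM1 and the IFIT genes and 0.596 to 0.773 between IFITM3 and the IFIT genes.

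Over all 18 libraries, where the difference of the lines dominates, the nearest genes were IRF1, OASL and UBE2H for IFIT1, C1S, OASL and PPM1K for IFIT2, NRIR, IRF1 and IFNL1 for IFIT3, and BCL2L13, SAMD9 and DSC2 for IFIT5, with r between 0.981 and 0.994. For IFITM1 they were OASL (0.996), IFI35 and ZNF385A, and for IFITM3 RMI2, SHISA5 and RAD9A (0.969 to 0.972). IFITM2 ran against its relatives, with r of -0.94 to IFITM1 and -0.84 to IFITM3, and lay closest to BASP1-AS1, TRIM3 and ROR2 (0.998).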

How the data were processed

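RNA was extracted with TRIzol and libraries were made with the NEBNext Ultra II kit. The deposited values are raw counts, whole numbers that the authors left unnormalized. The submitters' processing notes name HISAT2, featureCounts, DESeq2, GRCh38 and hg38, and the annotation, strandedness and versions are not given in the sources used here. The tables of single libraries repeat the joint table and were checked to be equal to it for all 18. Total counts per library were 15081973 to 17571922.

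Identifiers without version were matched to symbols. Counts were fitted with edgeR 4.0.16 in R 4.3.3: TMM, filterByExpr by condition, 1 mean per condition over 18 libraries, the quasi-likelihood test and Benjamini-Hochberg adjustment over all 18335 genes, called at 0.05. CPM use TMM library sizes, SE is the log2 fold change over the root of F, and intervals are 95%. The biological coefficient of variation was 12.9%. The fit was tested on simulated data.

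Members and lists were chosen with earlier results of these data known. The text names the members, list genes, other family genes, tested genes within 200 kb, and the 3 genes most like each member (mean of at least 1 CPM, prior count 2). Alternatives were DESeq2 1.42.0 (size factors, Wald test), no filter, compared conditions only, a replicate block, a GC and length correction over 18076 genes (mgcv 1.9.3), a log2 fold change over 1, Spearman's rho and leaving out each library. The planned protein identities were not computed. Shared 50-base stretches and GC content per library were added after the data were seen. Counts of 0 and intervals cover counting and replicate error only. The values of 1 gene of the signalling list are not reported here.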

Additional observations from a re-analysis of the deposited data

Results flagged for a closer look

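The response to PARPi differed between the 2 labelled lines by the interaction term of edgeR's model in 3 members at 12 h and in 4 at 24 h. The log2 fold change in HCC1937-OE-BRCA1 exceeded that in HCC1937-EV at 12 h by 1.45 for IFIT1, 1.63 for IFIT2 and 1.60 for IFIT3. At 24 h it did so by 0.93 for IFIT1, 1.31 for IFIT2, 1.39 for IFIT3 and 1.70 for IFIT5. All 12 fits that left out 1 library kept each of these calls. The lowest 24 h values in those fits were 0.78 for IFIT1, 1.19 for IFIT2, 1.30 for IFIT3 and 1.398 for IFIT5. With the GC and length correction, IFITM1 and IFITM3 also passed at 24 h, with differences of 0.65 and 0.75. The lines also differed in basal epithelial markers, and the part of that difference was not tested. Conditions of 3 libraries were too small for the check of single libraries that stand apart.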

How the results depend on the processing

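The number of members called was within 1.5 times the reported one in all fits other than the following. With a log2 fold change over 1, 3 members were called in HCC1937-OE-BRCA1 at 12 h (5 reported), 1 in HCC1937-EV at 24 h (4 reported) and 0 between 12 h and 24 h in either line (1 reported in each). Between 12 h and 24 h, HCC1937-OE-BRCA1 gave 4 members with the GC and length correction, with or without the replicate block, 4 with the compared conditions only, 2 with DESeq2's Wald test and 0 to 0 with a library left out. For HCC1937-EV these were 4, 4, 0 and 4, with 3 without a filter on low counts, 2 with the replicate block alone and 0 to 2 with a library left out. The 12 h difference between the lines gave 5 members without a filter and 6 with the GC and length correction, with or without the block. Except for the effect-size limit and the fewer libraries of some fits, the cause was not tested.

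Directions turned only in uncalled values. IFITM2 in HCC1937-OE-BRCA1 between 12 h and 24 h was -0.0063 with DESeq2's size factors and with its Wald test, -0.034 without a filter, -0.0030 with the block, -0.0027 with the compared conditions only and -0.20 to 0.20 with a library left out. With the GC and length correction, alone and with the block, HCC1937-EV gave -0.22 and -0.22 for IFITM2 and -0.083 and -0.085 for IFITM3 at 12 h, -0.026 and -0.028 for IFITM2 and -0.019 and -0.019 for IFITM3 at 24 h, and 0.10 and 0.10 for IFIT5 between the times. With a library left out, HCC1937-EV gave -0.015 to 0.24 for IFIT3 and -0.20 to 0.16 for IFITM2 at 12 h, and -0.45 to 0.076 for IFIT5 between the times. The 24 h difference between the lines was -0.015 for IFITM2 without a filter, and with a library left out -0.065 to 0.19 for IFITM2 and -0.048 to 0.22 for IFITM3.

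The log2 ratio of the families without IFIT5, IFITM2 and IFITM3 was 0.83, 0.69 and 0.82 in HCC1937-EV (0 h, 12 h and 24 h). In HCC1937-OE-BRCA1 it was 1.14, 1.86 and 2.03. IFITM1 alone then stood for its family, so the sums hold other genes. In this ratio the mean of HCC1937-EV did not rise at 24 h, and the untreated libraries of the lines overlapped. Numbers of all genes called, higher and lower together, moved more. With a log2 fold change over 1, they were 125 of 423 in HCC1937-OE-BRCA1 at 12 h, 302 of 1515 at 24 h and 45 of 303 between the times, 1 of 8, 346 of 2520 and 10 of 33 in HCC1937-EV, 8596 of 13330, 8561 of 13371 and 8771 of 13555 between the lines, and 47 of 95 and 1147 of 3554 for the difference of the responses. With the GC and length correction, alone and with the block, HCC1937-OE-BRCA1 gave 1186 and 1179, 3095 and 2984, and 754 and 700, HCC1937-EV gave 150 and 107 at 12 h and 238 and 238 between the times, and the 12 h difference gave 635 and 588. Without a filter these were 959 between the times in HCC1937-OE-BRCA1, 818 at 12 h and 139 between the times in HCC1937-EV, and 644 for the 12 h difference. With the compared conditions only they were 809 and 3208 (24 h, and between the times) in HCC1937-OE-BRCA1, 0, 5173 and 6 in HCC1937-EV, and 37 for the 12 h difference. DESeq2's Wald test gave 669 and 818 (12 h, and between the times), 276 and 156, and 357. The block alone gave 1 in HCC1937-EV at 12 h.

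Same-numbered libraries of different conditions deviated together with r of -0.227 to 0.295, and 5 of 45 pairs exceeded 0.1. Libraries of other numbers gave -0.378 to 0.217. With 3 libraries per condition, these values cannot show whether the replicate numbers pair the samples, and the main fit used no pairing. With the block, IFIT1 in HCC1937-EV between 12 h and 24 h (adjusted p = 0.0330) and IFIT5 in the 12 h difference (adjusted p = 0.0483) were called, and no member's call was lost. By Spearman's rho, at most 1 of the 3 nearest genes of a member were shared with Pearson's r. IFITM2 in HCC1937-OE-BRCA1 and IFIT5 in HCC1937-EV are limited by depth.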
